A study of Bos taurus with 12 samples.

Results

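The genes described here come from families linked to storage, processing, deadenylation and decay of mRNA, without a test of their function in bovine oocytes. They were found by symbol in the array annotation: the CPEB, DAZ, YBX, ZAR1, PATL and LSM proteins, the poly(A)-binding proteins and poly(A) polymerases, the CPSF cleavage factors, the CCR4-NOT, PAN2-PAN3 and PARN deadenylases with the BTG and TOB proteins, the decapping factors, XRN exonucleases and exosome subunits, and the AGO, DICER1 and TNRC6 proteins. A probe set counted if it carried 1 symbol, and each gene was read from its probe set with the highest mean over 12 arrays. This gave 59 genes, with 89 probe sets between them, of the 9155 genes with 1 symbol. Family members without such a probe set, among them CPEB1, ZAR1, DAZL, YBX2, BTG4, XRN1, CNOT8 and PAN3, were not analysed here.

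The oocytes came from Japanese Black cattle, and the study set prepubertal heifers of 9 to 12 months against adult cows at the end of meiotic prophase and after maturation. Heifer ovaries were removed on commercial farms and cow ovaries came from an abattoir, so donor age and the place of collection cannot be told apart. In all groups, oocytes were aspirated from follicles of 2 to 8 mm, stripped of cumulus cells with hyaluronidase, pooled by 50, and their RNA was amplified before hybridisation. The 4 groups of 3 pools each were prepubertal metaphase II (MII), adult MII, prepubertal germinal vesicle (GV) and adult GV oocytes: GV oocytes were taken straight after aspiration, and MII oocytes were matured in vitro for 20 to 22 h and picked by their first polar body. The pools are called biological replicates in the labels, which name no shared animal or day, so that p-values measure the spread between these pools.

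A growing oocyte fills itself with mRNA that is kept silent with a short poly(A) tail, and the fully grown oocyte makes almost no new transcripts until the embryo does. During maturation, cytoplasmic polyadenylation wakes some stored messages and deadenylation, decapping and exonucleolytic decay clear others, so the protein machinery for both is itself a maternal store. Array signals here report each mRNA after amplification, relative to the rest of the pool. Whether tail length affected the amplification was not tested, so a difference between stages need not be one of amount. With pooled cells, fewer contributing cells and less RNA per cell cannot be told apart.

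Signals are log2 values throughout, on arrays whose medians ran from 5.64 to 8.30. The label of oocytes was checked with 8 oocyte genes (GDF9, BMP15, ZP2, ZP3, ZP4, NLRP5, OOEP and KPNA7). Their median lay 5.78 to 8.51 above the array median on 9 arrays, but at -0.45 on prepubertal GV replicate 1, -0.11 on prepubertal MII replicate 1 and 0.70 on adult GV replicate 1. On both prepubertal replicate 1 arrays 9 of 18 cumulus and granulosa markers and 8 of 13 theca and stroma markers, among them PTX3, VCAN and VIM, lay above the range of the 9 arrays, as did 0 of 8 blood markers. The 3 arrays go against their label, and values are given over all 12 arrays and over the 9 with an oocyte profile. These 9 are 2 prepubertal MII, 3 adult MII, 2 prepubertal GV and 2 adult GV arrays. Groups are called apart where no array of one reached an array of the other. In the lists of 4 groups below, the first value of a 3-value group belongs to replicate 1, so the first value is one of these 3 arrays in every group except adult MII.

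Each member is read from its brightest probe set, which by itself raises it against the median of all probe sets. The median of all 59 members lay 3.61 and 4.01 above the array median on prepubertal MII replicates 2 and 3, 3.80, 3.77 and 1.43 on the 3 adult MII arrays, 2.35 and 4.00 on prepubertal GV replicates 2 and 3, and 2.94 and 2.83 on adult GV replicates 2 and 3. The value of 1.43 belongs to adult MII replicate 3, which had the lowest signal of the 9 arrays for 20 of the 56 members that passed a filter on low signal and for 21.3% of all probe sets. On the 3 arrays without an oocyte profile it lay 3.37 (prepubertal MII replicate 1), 1.55 (prepubertal GV replicate 1) and 0.01 (adult GV replicate 1) above. The genes DCP1B, EXOSC4 and PAPOLB did not pass the filter and are called dim below.

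No member passed the threshold of an adjusted p under 0.05 in any comparison, over 12 or over 9 arrays. The comparisons were MII against GV oocytes at each age, prepubertal against adult oocytes at each stage, and the difference between both maturation differences (the interaction). Over all 14409 probe sets limma called 0% in every comparison but one, adult MII against adult GV over 9 arrays, where it called 0.118%. In that comparison 8 members lay higher and 3 lower at MII at an unadjusted p under 0.05, beside 6.94% and 4.48% of all probe sets. In the same comparison over 12 arrays the members' counts were 4 and 1, beside 4.08% and 3.85%. In prepubertal oocytes 0 members reached that level in either direction, over 12 arrays (1.22% and 2.19% of all probe sets higher and lower) or over 9 (3.57% and 3.42%). The descriptions below therefore give levels and differences, and none of the differences is a call.

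Among the genes that build and coat poly(A) tails, PAPOLA, PABPC1 and PABPC4 had MII arrays above GV arrays at both ages over 9 arrays in the probe sets used here. PABPN1 and PAPOLG did not in adults, and PAPOLB was dim. PAPOLA, the canonical poly(A) polymerase, read 11.80, 12.65 and 12.55 in prepubertal MII pools and 11.95, 12.10 and 12.20 in adult MII pools, against 10.20, 9.08 and 10.99 in prepubertal GV pools and 10.00, 9.22 and 4.20 in adult GV pools. Every MII array lay above every GV array, and it was the only one of the 56 members whose groups were apart at both ages over all 12 arrays, as were 0.819% of all probe sets. Its MII minus GV difference was 2.56 (SE 1.31) in prepubertal and 5.38 (SE 1.19) in adult oocytes over 9 arrays, with adjusted p = 0.740 and 0.102 in limma. Over 12 arrays the differences were 2.24 (SE 1.30) and 4.28 (SE 1.30). The adult value leaned on the 4.20 of GV replicate 3: without that array the difference was 2.87, and with GV replicate 3 as the only adult GV array it was 7.88 (adjusted p = 0.0230 in limma). A second PAPOLA probe set, too dim to pass the filter, read 6.83, 5.41 and 5.25 in prepubertal MII, 5.78, 5.96 and 6.31 in adult MII, 8.08, 7.73 and 0 in prepubertal GV and 10.00, 1.55 and 2.87 in adult GV pools, with overlap at both ages.

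PAPOLG, a nuclear poly(A) polymerase, read 8.55, 12.50 and 12.02 in prepubertal MII and 12.29, 12.53 and 13.20 in adult MII pools, against 8.63, 10.93 and 10.90 in prepubertal GV and 10.27, 12.41 and 10.50 in adult GV pools. Its difference over 9 arrays was 1.35 in prepubertal and 1.22 (SE 0.70) in adult oocytes (0.87 and 1.61 over 12 arrays), and adult MII replicate 1 lay below the highest adult GV array. PAPOLB, the testis-type enzyme, was dim, with values of 1.31 to 8.59.

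PABPC1, the main cytoplasmic poly(A)-binding protein, read 12.95, 10.93 and 12.19 in prepubertal MII and 11.83, 11.70 and 10.87 in adult MII pools, against 12.17, 10.63 and 8.79 in prepubertal GV and 5.69, 10.54 and 10.16 in adult GV pools. Over the 9 arrays all 5 MII arrays lay above all 4 GV arrays, as they did for PAPOLA and CPSF1 and for 3.82% of all probe sets. The differences were 1.85 (SE 0.93) in prepubertal and 1.12 (SE 0.85) in adult oocytes, and 1.50 and 2.67 over 12 arrays. PABPC4, a second cytoplasmic poly(A)-binding protein, read 11.39, 11.83 and 12.26 in prepubertal MII and 12.28, 12.01 and 12.82 in adult MII pools, against 11.27, 11.52 and 11.06 in prepubertal GV and 8.83, 11.99 and 9.75 in adult GV pools. Its groups were apart at each age over 9 arrays, by 0.76 in prepubertal and 1.50 in adult oocytes (0.55 and 2.18 over 12), with the nearest adult arrays at 12.01 in MII and 11.99 in GV. PABPN1, the nuclear form, differed by 1.56 (SE 0.79) in prepubertal and by -0.10 in adult oocytes (1.04 and -0.06 over 12 arrays). Over 9 arrays only the reported one of 4 PABPC1 probe sets was higher in adult MII oocytes.

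**Figure D1:**
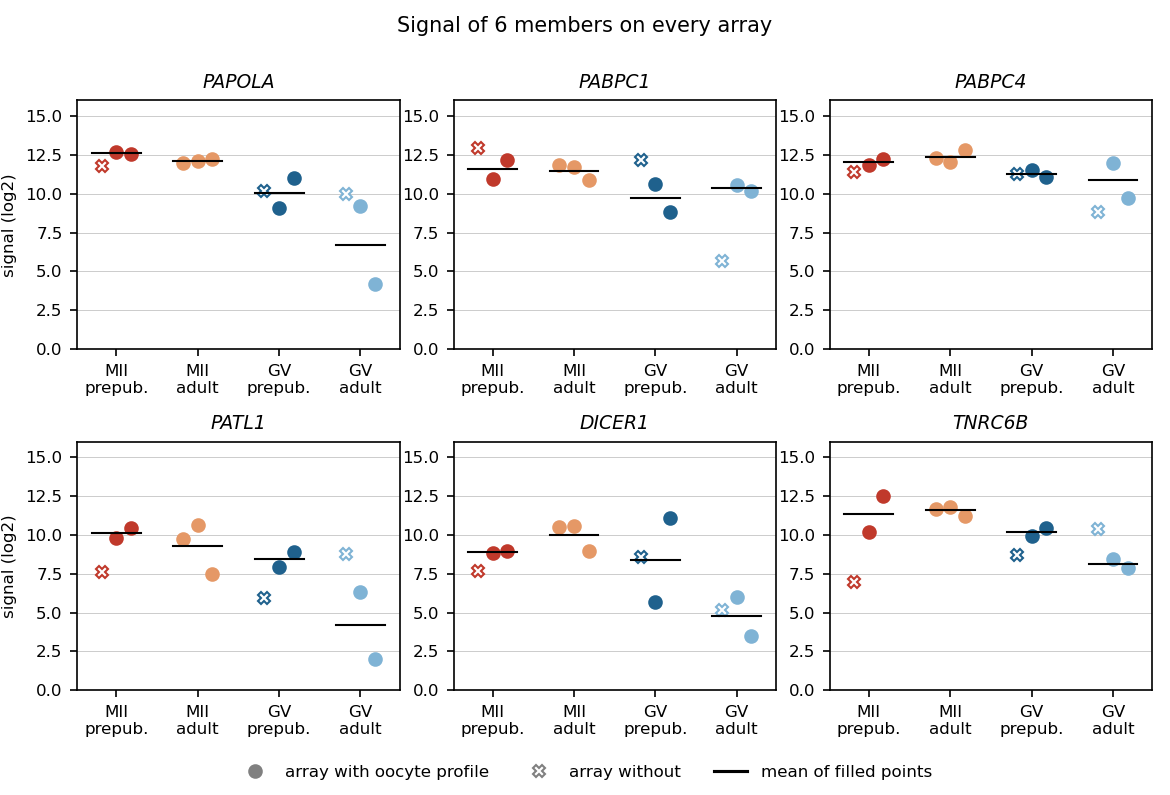
Log2 signal (y axis) of 6 members on each of 12 arrays, grouped as prepubertal MII, adult MII, prepubertal GV and adult GV; crosses are the 3 arrays without an oocyte profile and lines are the means of the other arrays. PAPOLA lies between 11.80 and 12.65 on the 6 MII arrays and reaches at most 10.99 on the 6 GV arrays, and PATL1 and DICER1 are lowest on adult GV replicate 3 (2.00 and 3.49).

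The CPSF genes encode the complex that recognises the polyadenylation signal and cuts the transcript there. CPSF1, the largest subunit, read 7.21, 7.70 and 7.74 in prepubertal MII and 8.60, 7.13 and 7.50 in adult MII pools, against 3.29, 4.57 and 6.53 in prepubertal GV and 9.96, 3.14 and 5.85 in adult GV pools. The 5 MII arrays of the 9 lay above the 4 GV arrays, with differences of 2.17 (SE 1.55) in prepubertal and 3.25 (SE 1.42) in adult oocytes, while over 12 arrays they were 2.76 and 1.43, with adult GV replicate 1 at 9.96. CPSF2, which forms the nuclease module with CPSF3, pointed the other way. It read 9.72, 8.62 and 7.09 in prepubertal MII and 9.32, 8.44 and 4.42 in adult MII pools, against 10.35, 11.36 and 10.78 in prepubertal GV and 10.80, 11.38 and 8.54 in adult GV pools. Prepubertal MII lay below prepubertal GV on all 3 arrays, by -2.35 (SE 1.31) over 12 and -3.21 (SE 1.58) over 9 arrays, and in adults the groups overlapped, at -2.85 and -2.57. The endonuclease CPSF3 lay 0.88 lower in prepubertal and 1.19 lower in adult MII pools over 9 arrays, CPSF4 lay 2.01 and 1.15 higher, and CPSF6 differed by -0.17 and -0.67. Over 12 arrays these were -0.69 and -1.52 for CPSF3, 1.07 and 0.93 for CPSF4, and 0.01 and -0.49 for CPSF6.

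Among the genes grouped here under mRNA storage, PATL1 had the widest adult difference and, in prepubertal oocytes, LSM12 (-1.96 over 9 and -1.80 over 12 arrays). PATL1 bridges deadenylation and decapping in P-bodies. Its signal was 7.61, 9.82 and 10.46 in prepubertal MII and 9.73, 10.65 and 7.45 in adult MII pools, against 5.91, 7.93 and 8.92 in prepubertal GV and 8.79, 6.35 and 2.00 in adult GV pools. The groups were apart at both ages over 9 arrays and overlapped at both over 12. Over 9 arrays MII exceeded GV by 1.72 (SE 1.58) in prepubertal and 5.10 (SE 1.44) in adult oocytes (adjusted p = 0.868 and 0.173 in limma), and the adult value was 2.93 without GV replicate 3. Over 12 arrays the differences were 1.71 (SE 1.59) and 3.56 (SE 1.59). In the probe sets used here, 5 members (CPSF1, PABPC1, PABPC4, PAPOLA and PATL1) met the condition of groups apart at both ages over 9 arrays with MII higher, beside 5.79% of all probe sets. LSM5 and LSM6 met it with MII lower, beside 5.22%.

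YBX1, a Y-box protein that packages mRNA, read 14.31 to 16.06 on all arrays but adult GV replicate 1, where it read 5.79. It differed between MII and GV by 0.02 in prepubertal and -0.12 (SE 0.43) in adult oocytes over 9 arrays, and with a range of 1.75 it was among the members that varied least. LSM14A, an RNP component of P-bodies, kept within 11.55 and 12.88 on the 9 arrays and differed by 0.23 and -0.29. CPEB4, a relative of the polyadenylation switch protein CPEB1, read 7.03, 10.33 and 9.64 in prepubertal MII and 11.19, 10.83 and 11.35 in adult MII pools, against 8.28, 9.87 and 8.01 in prepubertal GV and 5.58, 9.12 and 11.14 in adult GV pools. Its differences over 9 arrays were 1.04 (SE 1.05) in prepubertal and 0.99 (SE 0.96) in adult oocytes, with overlap at both ages, and 0.28 and 2.51 over 12. YBX3, a second Y-box protein, differed by 1.31 and -0.46, DAZAP2 by 0.80 and 1.74, DAZAP1 by -0.70 and -0.59, and LSM12 by -1.96 and -0.23, in prepubertal and adult oocytes. Over 12 arrays YBX3 differed by 1.19 and 0.24, DAZAP2 by 0.65 and 1.43, and DAZAP1 by -0.43 and -0.77.

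Of the 13 deadenylation genes, 4 had higher and 9 lower values at MII in prepubertal oocytes over 9 arrays (median -0.36), and 6 higher and 7 lower in adult oocytes (median -0.05). With all 12 arrays the counts were 4 and 9 (-0.43) in prepubertal and 8 and 5 (0.91) in adult oocytes. CNOT7, a catalytic subunit of CCR4-NOT, was the member with the smallest spread: it read 13.48 to 14.82 on the 9 arrays with an SD of 0.463, and MII differed from GV by -0.49 in prepubertal and 0.05 (SE 0.46) in adult oocytes. CNOT6L, the catalytic partner that degrades maternal mRNA in mouse oocytes, read 8.22, 12.21 and 11.95 in prepubertal MII and 12.10, 11.92 and 11.47 in adult MII pools, against 8.21, 12.01 and 9.55 in prepubertal GV and 8.32, 10.07 and 12.08 in adult GV pools. Its differences of 1.30 and 0.75 over 9 arrays came with overlap at both ages. The scaffold CNOT1 read 8.33, 8.22 and 6.29 in prepubertal MII and 8.20, 8.78 and 5.87 in adult MII pools, against 7.23, 8.93 and 9.65 in prepubertal GV and 6.04, 8.42 and 9.31 in adult GV pools, and differed by -2.04 (SE 1.38) and -1.25 (SE 1.26). The subunits CNOT2 (-1.56 and -2.07) and CNOT10 (-1.06 and -0.44) lay lower at MII at both ages. CNOT6 differed by 0.40 and -0.23, and CNOT9 by 0.24 and 0.51 in the probe set used here. Another CNOT9 probe set read 1.73 and 3.28 in prepubertal MII against 2.69 and 8.11 in prepubertal GV pools of the 9 arrays. In adults it read 6.65, 7.78 and 4.70 against 7.15 and 7.57. PAN2, the catalytic subunit of the other cytoplasmic deadenylase, differed by 0.42 and -0.05, and PARN by -0.15 and 0.80. In prepubertal and adult oocytes, the 12-array differences were -0.43 and 1.56 for CNOT7, 0.87 and 1.67 for CNOT6L, -0.99 and -0.30 for CNOT1, -1.80 and -1.13 for CNOT2, -0.71 and 0.97 for CNOT10, 0.14 and -0.39 for CNOT6, 1.39 and 0.59 for CNOT9, 0.02 and 0.91 for PAN2, and -0.45 and 1.49 for PARN.

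BTG and TOB proteins tie the deadenylase to its targets and restrain cell division. BTG1 read 14.26, 11.05 and 10.16 in prepubertal MII and 11.27, 10.78 and 11.45 in adult MII pools, against 13.84, 10.52 and 11.41 in prepubertal GV and 10.39, 7.48 and 9.70 in adult GV pools. Adult MII lay above adult GV on all arrays, by 2.58 (SE 0.91) over 9 and 1.98 over 12 arrays, and prepubertal MII differed by -0.36 with overlap. TOB2 read 11.40, 8.49 and 5.51 in prepubertal MII and 8.59, 8.46 and 7.89 in adult MII pools, against 11.72, 9.52 and 7.76 in prepubertal GV and 6.59, 7.53 and 1.83 in adult GV pools. Its adult groups were apart, by 3.63 (SE 1.64) over 9 arrays, but by 0.78 without GV replicate 3, and by 2.99 over 12 arrays. A second TOB2 probe set overlapped, with 7.59, 9.12 and 3.13 in adult MII against 9.42, 6.15 and 3.72 in adult GV pools. TOB1 differed by -0.11 in prepubertal and -1.30 in adult oocytes, and BTG3 by -2.66 and -1.46 (over 12 arrays -0.29 and -1.23 for TOB1, and -1.54 and -2.79 for BTG3).

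Decapping removes the cap from a deadenylated message and opens it to exonucleases. DCP1A, an activator of the decapping enzyme, read 10.36, 9.17 and 10.39 in prepubertal MII and 10.31, 10.13 and 9.24 in adult MII pools, against 8.71, 9.48 and 9.47 in prepubertal GV and 10.72, 8.15 and 2.38 in adult GV pools. MII exceeded GV by 0.30 in prepubertal and 4.63 (SE 1.44) in adult oocytes over 9 arrays, and the adult difference was 1.75 without GV replicate 3 and 7.52 (adjusted p = 0.0414 in limma) with that array as the only adult GV array. Over 12 arrays the differences were 0.75 and 2.81 (SE 1.52). The scaffold EDC4 differed by 1.83 and 1.76, EDC3 by -0.63 and 2.94, the scavenger enzyme DCPS by 2.85 and -1.57, and the exonuclease XRN2, which works in the nucleus, by -0.30 and 1.17. Over 12 arrays these were 0.33 and 0.81 for EDC4, -2.01 and 1.83 for EDC3, 0.59 and -1.06 for DCPS, and 0.40 and 0.70 for XRN2. DCP1B was dim, and read 9.45, 8.09 and 10.06 on the 3 arrays without an oocyte profile and 3.23 to 6.64 on the other 9.

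Small LSM proteins form rings: LSM1 to LSM7 bind the shortened 3′ end and promote decapping, LSM2 to LSM8 hold U6 RNA in the nucleus, and LSM10 belongs to the U7 particle of histone mRNA. Over 9 arrays 8 of the 9 had lower values in adult MII than in adult GV oocytes, all but LSM1, with a median difference of -1.74, against 0.05 for all probe sets. For 7 of them (LSM2, LSM3, LSM4, LSM5, LSM6, LSM7 and LSM10) no adult MII array reached an adult GV array, a pattern in 13.1% of all probe sets. The median stayed at -1.49 after quantile normalization and -1.64 after median centring, and between -2.05 and -1.11 without any 1 array. LSM3 read 12.68, 12.62 and 13.21 in adult MII pools against 9.84, 13.70 and 14.51 in adult GV pools, and differed by -1.27 (SE 0.55, adjusted p = 0.392 in limma) over 9 arrays. LSM4 read 11.33, 10.93 and 9.23 in adult MII pools against 5.51, 12.65 and 11.83 in adult GV pools, a difference of -1.74 (SE 0.81). LSM7 read 11.03, 10.85 and 12.54 in adult MII pools against 5.11, 12.83 and 13.06 in adult GV pools, a difference of -1.47 (SE 0.69).

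Over 12 arrays the LSM pattern was not seen. Adult GV replicate 1 held the lowest of all 12 values for LSM1, LSM3, LSM4, LSM5 and LSM7, and over 12 arrays 4 LSM genes were lower and 5 higher in adult MII oocytes, with a median of 0.15. LSM10 and LSM6 were apart over 12 arrays too. LSM10 read 3.80, 4.69 and 6.19 in adult MII pools against 6.94, 7.26 and 8.41 in adult GV pools, and LSM6 read 8.08, 9.34 and 5.71 in adult MII pools against 11.47, 9.35 and 9.87 in adult GV pools, so that the nearest arrays were all but level. In prepubertal oocytes the LSM genes were closer to 0, with 7 of 9 lower and a median of -0.35 over 9 arrays, against -0.14 for all probe sets. That direction turned with the scaling, to 7 of 9 higher and a median of 0.45 after median centring, and to 5 of 9 higher without prepubertal GV replicate 3. LSM5 read 12.72, 12.05 and 12.02 in prepubertal MII and 10.62, 10.99 and 7.83 in adult MII pools, against 12.62, 14.40 and 12.40 in prepubertal GV and 4.68, 12.22 and 11.22 in adult GV pools. LSM7 (0.24) and LSM2 (2.47) were the 2 genes with higher prepubertal MII values, LSM2 with 10.21, 10.18 and 10.06 in MII against 9.93, 6.43 and 8.86 in GV pools.

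**Figure D2:**
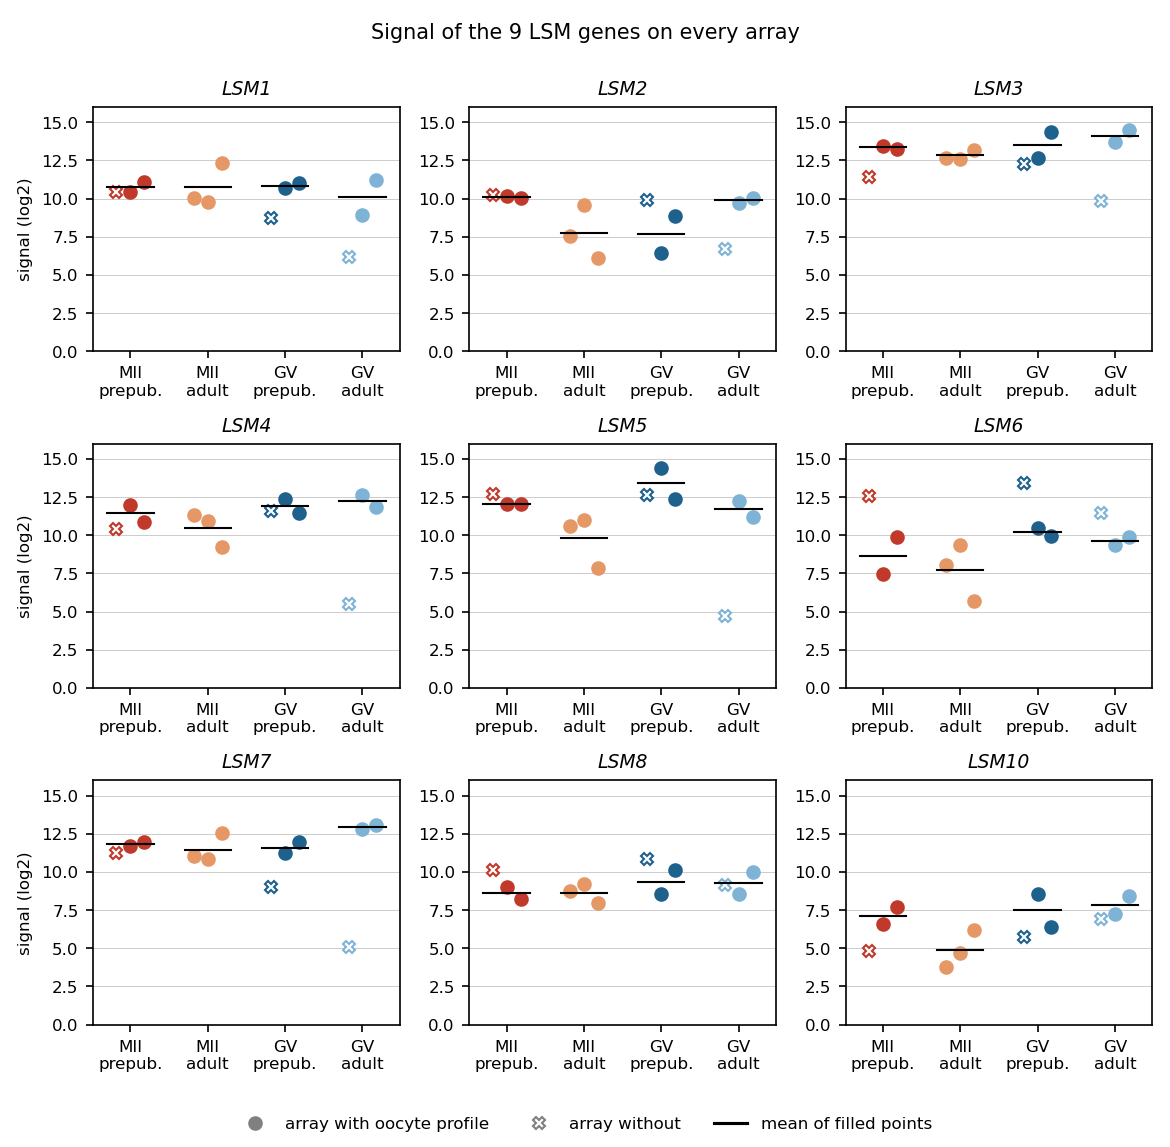
Log2 signal (y axis) of the 9 LSM genes on each of 12 arrays, grouped as prepubertal MII, adult MII, prepubertal GV and adult GV; crosses are the 3 arrays without an oocyte profile and lines are the means of the other arrays. For 7 of the 9 genes the filled adult MII points lie below both filled adult GV points, while adult GV replicate 1 falls to 4.68 for LSM5 and 5.11 for LSM7.

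The exosome degrades RNA from the 3′ end. EXOSC9, a ring subunit, read 12.03, 13.11 and 13.48 in prepubertal MII and 13.41, 13.01 and 14.81 in adult MII pools, against 12.36, 14.60 and 14.35 in prepubertal GV and 6.20, 13.99 and 14.67 in adult GV pools. It lay lower at MII by 1.18 (SE 0.56) in prepubertal and 0.59 (SE 0.51) in adult oocytes over 9 arrays, and the adult groups overlapped. EXOSC1, a cap subunit, read 8.69, 6.96 and 7.66 in prepubertal MII pools against 8.55, 9.94 and 9.30 in prepubertal GV pools, a difference of -2.31 (SE 1.43) over 9 arrays, and differed by 0.76 in adults. EXOSC3 differed by -0.24 and -0.89, EXOSC8 by 0.63 and -1.66, EXOSC2 by 1.97 and 0.98, EXOSC6 by 1.82 and 1.27, and the catalytic subunit EXOSC10 by 1.03 and -0.37, in prepubertal and adult oocytes. The 12-array differences were -0.90 and 2.12 for EXOSC9, -1.50 and 0.90 for EXOSC1, 0.10 and 0.54 for EXOSC3, 0.44 and 0.45 for EXOSC2, 1.36 and 1.44 for EXOSC6, 0.98 and 0.77 for EXOSC10, and 0.0002 and -0.72 for EXOSC8. No exosome gene was apart between the adult stages over 9 or 12 arrays, and EXOSC4 was dim.

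Of the 4 small-RNA genes, DICER1 and TNRC6B had higher and AGO2 and AGO3 lower values in adult MII oocytes, in the probe sets used here. DICER1, which cuts the precursors of microRNAs and, in mouse oocytes, of endogenous siRNAs, read 7.67, 8.83 and 8.96 in prepubertal MII and 10.48, 10.57 and 8.97 in adult MII pools, against 8.55, 5.67 and 11.08 in prepubertal GV and 5.18, 6.03 and 3.49 in adult GV pools. All adult MII arrays lay above all adult GV arrays over 12 as over 9 arrays, by 5.11 (SE 1.38) and 5.25 (SE 1.51), with adjusted p = 0.563 and 0.174 in limma, and by 3.98 over the 9 arrays without adult GV replicate 3. Its adult GV values all lay below the medians of their arrays (8.30, 6.28 and 6.23), so the low side may be near background. In prepubertal oocytes the GV arrays alone spanned 5.67 to 11.08 and the difference was 0.06 (SE 1.38) over 12 and 0.52 (SE 1.65) over 9 arrays. TNRC6B, the scaffold through which Argonaute calls the deadenylases, read 6.98, 10.21 and 12.50 in prepubertal MII and 11.69, 11.82 and 11.23 in adult MII pools, against 8.70, 9.92 and 10.46 in prepubertal GV and 10.40, 8.45 and 7.84 in adult GV pools. Adult MII lay above adult GV without overlap, by 2.68 (SE 1.28) over 12 and 3.44 (SE 0.90, adjusted p = 0.156 in limma) over 9 arrays, and by 3.13 without GV replicate 3. The other TNRC6B probe set overlapped over 9 and over 12 arrays, with 10.63, 10.02 and 6.62 in adult MII against 11.95, 7.12 and 4.28 in adult GV pools. AGO2, the Argonaute that cuts its target, differed by -1.06 and -0.90, and AGO3 by -0.58 and -1.33, in prepubertal and adult oocytes. Over 12 arrays AGO2 differed by -0.9986 and -0.15, and AGO3 by -0.27 and -1.71. A second AGO2 probe set lay higher in prepubertal MII than GV pools of the 9 arrays, with 8.77 and 11.60 against 7.91 and 6.70. In adults it overlapped, with 9.50, 10.02 and 6.81 in MII against 9.50 and 8.21 in GV pools.

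Set side by side over 9 arrays, the role medians ran from -0.36 for the deadenylation genes to 1.96 for the polymerases in prepubertal oocytes, and from -1.74 for the LSM genes to 3.30 for the polymerases in adult oocytes. Over 12 arrays they ran from -0.54 (LSM genes) to 1.56 (polymerases) and from -0.49 (cleavage factors) to 2.94 (polymerases). The polymerases are only PAPOLA and PAPOLG. Of the 56 members, 28 lay higher and 28 lower at MII in prepubertal oocytes (median -0.04, against -0.14 for all probe sets), and 25 higher and 31 lower in adult oocytes (median -0.17, against 0.05). Groups were apart for 14 members with higher and 10 with lower MII values in prepubertal oocytes, beside 19.4% and 20.8% of all probe sets. In adult oocytes they were apart for 10 and 8 members, beside 15% and 13.1%. These shares are near those of all probe sets, and the prepubertal split depended on the scaling, with 43 of 56 members higher after median centring, which moved the median of all probe sets to 0.66. Over 12 arrays 37 of 56 members were higher in adult MII oocytes (median 0.73, against -0.10) and 46 after median centring, and 31 were higher in prepubertal MII oocytes (median 0.04, against -0.29) and 46 after median centring. Groups were then apart for 7 members with higher and 2 with lower adult MII values, beside 8.11% and 7.19% of all probe sets, and for 3 and 1 in prepubertal oocytes, beside 3.66% and 6.05%.

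The sign of 12 members in adult and of 5 in prepubertal maturation differed between both sets of arrays. The adult ones were lower over 9 and higher over 12 arrays. YBX1 differed by 2.99 over 12 and -0.12 over 9 arrays, EXOSC9 by 2.12 and -0.59, LSM7 by 1.14 and -1.47, CNOT10 by 0.97 and -0.44, and PAN2 by 0.91 and -0.05, and LSM3, LSM4, LSM5, LSM14A, EXOSC3, EXOSC10 and YBX3 were the others. The prepubertal ones were CPSF6, EXOSC3, LSM1, LSM14A and XRN2, all within 0.50 of 0 in both sets of arrays.

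**Figure D3:**
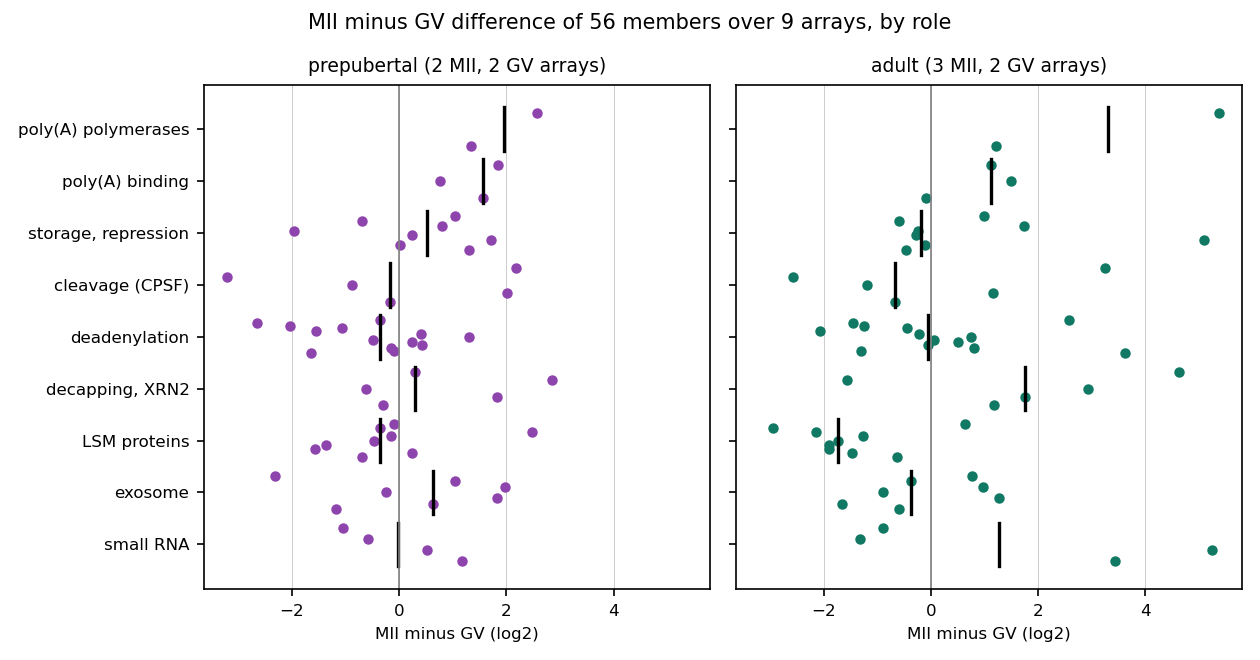
MII minus GV difference (log2, x axis) of each of 56 members over 9 arrays, by role (y axis), in prepubertal (left) and adult oocytes (right); each point is 1 gene and black bars are role medians. In adults the LSM bar lies at -1.74 and the polymerase bar at 3.30, and 4 single genes (PAPOLA, DICER1, PATL1 and DCP1A) lie above 4.

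Between prepubertal and adult GV oocytes the widest differences in the probe sets used here were in PATL1, DCP1A and DCPS. For these genes adult GV replicate 3 held the lowest or highest of the 9 values. This comparison and the adult maturation comparison share the adult GV arrays. Over 9 arrays 7 members were higher and 1 lower in prepubertal GV oocytes at an unadjusted p under 0.05, beside 3.24% and 1.39% of all probe sets, and no member had an adjusted p under 0.997 in limma. PATL1 averaged 8.42 ± 0.70 in prepubertal and 4.17 ± 3.08 in adult GV pools (SD, n = 2 each), a difference of 4.25 (SE 1.58). Its other probe sets that passed the filter were mixed. They read 8.64 and 4.94 in prepubertal against 3.91 and 4.76 in adult GV pools, 6.89 and 3.08 against 3.58 and 5.92, and 8.14 and 7.18 against 9.73 and 8.07. The reported probe sets of DCP1A (4.21), DICER1 (3.62), PAPOLA (3.33) and XRN2 (3.17) were also higher in prepubertal GV oocytes. PAPOLA and DICER1 overlapped between the ages. All other DCP1A probe sets overlapped too and were lower on average in prepubertal GV pools. They read 6.52 and 6.34 against 9.58 and 5.93 in adults, 5.12 and 6.81 against 7.75 and 4.78, and 7.48 and 0.83 against 8.72 and 6.38. Without adult GV replicate 3 the differences were 2.08 for PATL1, 1.33 for DCP1A, 0.82 for PAPOLA, 1.86 for XRN2 and -2.31 for DCPS, and DICER1 differed by 0.91 without prepubertal GV replicate 3. Over 12 arrays they were 1.87 for PATL1, 2.14 for DCP1A, 3.53 for DICER1, 2.28 for PAPOLA, 2.11 for XRN2 and -1.91 for DCPS. DCPS lay on the other side, with 6.11 and 2.10 in prepubertal GV pools against 6.42 and 10.59 in adult GV pools, a difference of -4.39 (SE 1.86). XRN2 read 13.46 and 12.39 in prepubertal against 11.07 and 8.45 in adult GV pools. Its other probe sets overlapped, with 11.76 and 12.25 against 11.19 and 12.27, and 9.97 and 10.73 against 10.86 and 8.14. Groups were apart for 12 members with higher and 7 with lower prepubertal values, beside 16.2% and 11% of all probe sets. Of the 56 members 35 were higher in prepubertal GV oocytes (median 0.42, against 0.23), and 29 after median centring.

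Over all 12 arrays 44 of 56 members were higher in prepubertal than in adult GV oocytes (median 0.9986, against 0.25 for all probe sets), as were 57.6% of all probe sets. This count contains adult GV replicate 1, below all 11 other arrays for 16 of the 56 members and for 15% of all probe sets. At an unadjusted p under 0.05 in limma 4 members were higher, TOB2 (4.35), LSM5 (3.76), DICER1 (3.53) and BTG1 (2.73), and 0 lower, beside 1.98% and 0.527%. LSM5 averaged 13.14 ± 1.10 in prepubertal and 9.37 ± 4.10 in adult GV pools (SD, n = 3 each), and its difference was 1.42 without adult GV replicate 1. Without prepubertal GV replicate 3 DICER1 differed by 2.21, without adult GV replicate 3 TOB2 differed by 2.60, and without prepubertal GV replicate 1 BTG1 differed by 1.77. Groups were apart for 5 members in the probe sets used here, all with higher prepubertal values (BTG1, TOB2, EXOSC1, LSM5 and LSM12), beside 3.8% higher and 1.88% lower. A second TOB2 probe set overlapped, with 10.38, 8.43 and 6.59 in prepubertal against 9.42, 6.15 and 3.72 in adult GV pools. TOB2 and BTG1 also had prepubertal replicate 1 as their highest GV array, at 11.72 and 13.84.

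In MII oocytes, over 9 arrays 2 members were higher in prepubertal oocytes at an unadjusted p under 0.05 and 0 lower, beside 1.2% and 1.36% of all probe sets, with no member at an adjusted p under 0.9996 in limma. PABPN1 read 12.45 and 12.80 in prepubertal MII pools against 11.22, 10.91 and 10.65 in adult MII pools, a difference of 1.70 (SE 0.72). LSM5 differed by 2.22 (SE 0.95), LSM2 by 2.37 (SE 1.25) and LSM10 by 2.25 (SE 1.40), and 8 of the 9 LSM genes were higher in prepubertal MII oocytes with a median of 0.94, against 0.07 for all probe sets. PAN2 lay on the other side, with 6.82 and 6.49 in prepubertal against 8.67, 8.47 and 8.42 in adult MII pools, a difference of -1.86 (SE 1.30). In the probe sets used here, CPEB4 (-1.14, SE 0.96) and DICER1 (-1.11, SE 1.51) were lower in prepubertal MII oocytes without overlap. The nearest DICER1 arrays read 8.96 in prepubertal and 8.97 in adult pools. Both other CPEB4 probe sets overlapped and were highest on a prepubertal array. They read 8.67 and 7.08 against 8.23, 8.27 and 2.51 in adults, and 9.69 and 9.08 against 9.41, 8.54 and 8.26. The other PAN2 probe set overlapped too, with 6.84 and 7.83 against 8, 7.82 and 6.12. PAPOLA differed by 0.51 (SE 1.19). Without adult MII replicate 3 LSM5 differed by 1.23 and LSM2 by 1.55. With all 12 arrays the differences were 0.79 for PABPN1, 2.45 for LSM5, 2.41 for LSM2, 1.47 for LSM10, -1.70 for PAN2, -2.12 for CPEB4, -1.52 for DICER1 and 0.25 for PAPOLA. Groups were apart for 10 members with higher and 3 with lower prepubertal values, beside 9.24% and 9.89% of all probe sets. Of the 56 members 37 were higher in prepubertal MII oocytes (median 0.27, against 0.07), and 46 after median centring, which set the median of all probe sets to 0.44.

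Over 12 arrays 0 members reached an unadjusted p under 0.05 between the ages at MII in limma, beside 1.91% of all probe sets higher and 0.75% lower. In the probe sets used here, groups were apart for 5 members higher in prepubertal oocytes (CNOT9, XRN2, LSM2, LSM5 and AGO3). They were apart for 3 lower (PAN2, DICER1 and CPEB4), beside 4.78% and 5.18% of all probe sets higher and lower. Another CNOT9 probe set that passed the filter was apart the other way. It read 2.56, 1.73 and 3.28 in prepubertal against 6.65, 7.78 and 4.70 in adult MII pools. The nearest XRN2 arrays read 12.28 in prepubertal and 12.27 in adult pools, and both other XRN2 probe sets overlapped. PAN2 read 7.13 and CPEB4 7.03 on prepubertal MII replicate 1, the array without an oocyte profile, both below all adult MII arrays. In the test of a difference in maturation between the ages DICER1 had an interaction of -5.05 (SE 1.95, unadjusted p = 0.0179 in limma) over 12 and -4.73 (SE 2.24) over 9 arrays, with adjusted p = 0.9998 and 0.999. It was the 1 member lower at an unadjusted p under 0.05, with 0 higher, beside 0.833% and 0.375% of all probe sets. Over 9 arrays the reported LSM2 probe set (4.61) was higher and those of BTG1 (-2.93) and TOB2 (-5.27) lower at that level, beside 0.979% and 2.08%. Without prepubertal GV replicate 3 the DICER1 interaction over 9 arrays was -2.02, without adult GV replicate 3 that of TOB2 was -2.42, and without adult GV replicate 2 that of BTG1 was -1.82.

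The 2 prepubertal arrays without an oocyte profile differed from the other arrays in both directions. On both, 8 members lay above and 8 below the whole range of the 9 arrays, beside 13.7% and 9.27% of all probe sets. After quantile normalization the counts were 9 and 12, and after median centring 4 and 11. The 8 above were BTG3, BTG1, LSM6, TOB2, YBX3, DAZAP2, AGO3 and TOB1, of which TOB1 lay only 0.17 above. BTG1 read 14.26 on prepubertal MII replicate 1 and 13.84 on prepubertal GV replicate 1, against 7.48 to 11.45 on the 9 arrays, and BTG3 read 10.83 and 10.15 against 1.74 to 7.45. YBX3 read 13.44 and 12.49 against 3.38 to 11.21.

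The 8 below were PAPOLG, CNOT6L, CNOT7, EXOSC9, PABPN1, CPSF4, EXOSC3 and LSM3. PAPOLG read 8.55 and 8.63, against 10.50 to 13.20 on the 9 arrays. CNOT6L read 8.22 and 8.21 against 9.55 to 12.21, and CNOT7 read 11.98 and 12.27 against 13.48 to 14.82. PAPOLA, PATL1 and DICER1 were on neither list. On the same 2 arrays the median of the cumulus and granulosa markers lay 2.86 and 1.83 above the array median, against -1.96 to 0.60 on the 9, and no cumulus or granulosa marker was at 0 on them. The part of cumulus RNA in these values was not tested.

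**Figure D4:**
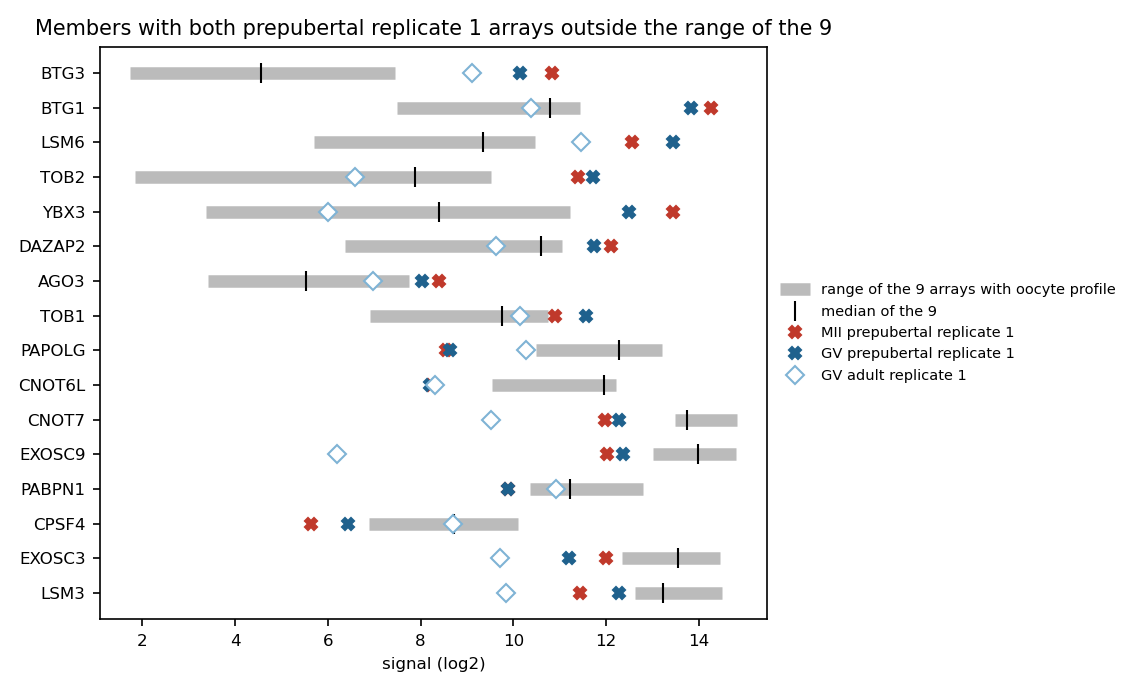
Log2 signal (x axis) of the 16 members for which both prepubertal replicate 1 arrays (crosses) lay outside the range of the 9 arrays with an oocyte profile (grey bars, with the median as a line); open diamonds are adult GV replicate 1. The crosses of BTG1 lie at 13.84 and 14.26 beyond a highest value of 11.45, and those of CNOT7 at 11.98 and 12.27 below a lowest value of 13.48.

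Adult GV replicate 1 followed neither pattern. YBX1 at 5.79 stood 8.52 below the next lowest array, EXOSC9 at 6.20 stood 5.83 below, and LSM7, LSM4, LSM5 and PABPC1 stood 3.10 to 3.89 below. CPSF1 (9.96) and DCP1A (10.72) were instead at their highest on it. The array held the highest of all 12 signals for these 2 of the 56 members and for 27% of all probe sets. It held the lowest for 16 members and for 15% of all probe sets. It was less alike to any other array than the rest, with a highest rank correlation of 0.138 over the 14409 probe sets, where the 9 arrays with an oocyte profile had 0.553 to 0.852.

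Low and high spread on the 9 arrays occurred in several roles. The median SD of a member was 1.31, against 1.61 for all probe sets. CNOT7 (0.463), LSM14A (0.47), YBX1 (0.49), EXOSC9 (0.70) and LSM3 (0.71) varied least, and PAPOLA (2.74), PATL1 (2.72), DICER1 (2.60), EXOSC6 (2.53), EDC3 (2.50) and DCP1A (2.49) varied most. For PAPOLA, PATL1, DICER1, EDC3 and DCP1A the lowest array was adult GV replicate 3, which was the lowest of the 9 for 12 members and for 16% of all probe sets. Each of these genes read below the median of that array, 6.23.

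Probe sets of 1 gene often disagreed, which limits every value given for a gene. Of 16 members with 2 or more probe sets that passed the filter, all probe sets had the same sign of MII minus GV in 8 in prepubertal and in 6 in adult oocytes over 9 arrays. For prepubertal minus adult values they had the same sign in 7 at GV and in 6 at MII. In adult maturation DCP1A had the same sign in all 4 of its probe sets, at 4.63, 2.79, 1.45 and 1.16. TNRC6B had it in both, at 3.44 and 3.39, though the second one overlapped between MII and GV. PATL1 gave 5.10, 3.90 and 3.59 in 3 probe sets and -2.03 in another in adult oocytes. For PABPC1 only the probe set reported above gave a higher adult MII value (1.12), and the others gave -0.18, -1.64 and -1.78. CPEB4 gave 0.99, 5.54 and -0.82. DICER1 and CPSF1 each had a single probe set.

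**Figure D5:**
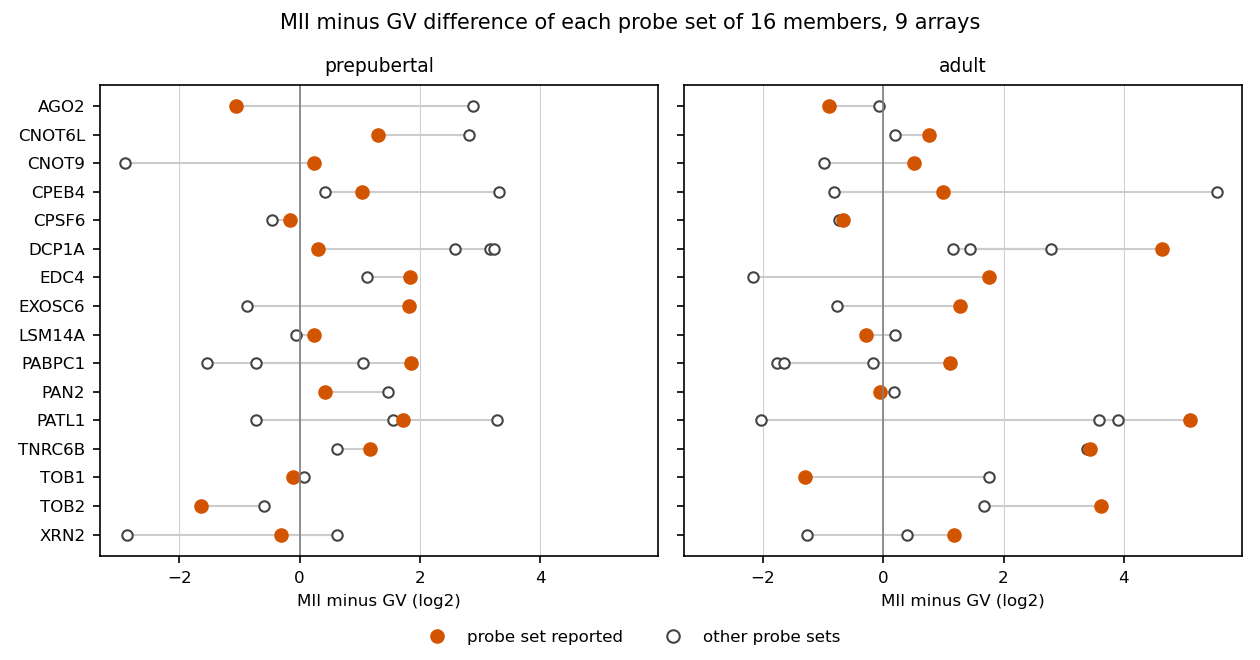
MII minus GV difference (log2, x axis) over 9 arrays of every probe set that passed the filter for the 16 members with 2 or more, in prepubertal (left) and adult oocytes (right); filled points are the probe sets used in the text. In adults the DCP1A points lie between 1.16 and 4.63, while those of PATL1 run from -2.03 to 5.10.

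Other genes of these pathways were taken as 5 further lists: partners in storage and translational control (15 genes passed the filter), tailing and 3′ processing (13), decay (13), m6A factors (10) and small-RNA partners (4). None of these genes had an adjusted p under 0.05 in limma in any comparison over 12 or 9 arrays. The poly(C)-binding protein PCBP1, which steadies mRNA, was higher at MII at both ages over 9 arrays, by 2.06 (SE 0.49, unadjusted p = 0.000806 and adjusted p = 0.544 in limma) in prepubertal and 1.77 (SE 0.45) in adult oocytes, and by 1.09 and 2.81 over 12. Its relative PCBP2 differed by 3.31 (SE 1.22) and 2.63 (SE 1.11), and by 2.67 and 3.55 over 12. The cap-binding factor EIF4E (-1.24) and FXR1 (-1.35), a relative of the fragile X protein, were lower in adult MII oocytes at an unadjusted p under 0.05 over 9 arrays. Over 12 arrays both signs turned, to 0.76 and 0.34, with adult GV replicate 1 at 8.29 for EIF4E and 8.24 for FXR1. In the storage list 12 of 15 genes were higher at MII in prepubertal oocytes (median 0.69, against -0.14 for all probe sets) and 4 of 15 in adult oocytes (median -0.79, against 0.05). The uridylyltransferase TUT7, which tags short-tailed mRNA for decay, differed by 3.95 (SE 1.55) in adult oocytes, ZFP36, which binds AU-rich messages, by 4.21 (SE 1.62), and the nonsense-mediated decay kinase SMG1 by 4.09 (SE 1.50), all over 9 arrays. Over 12 arrays these were 2.07, 1.68 and 2.12. TUT7 read 7.87, 9.73 and 7.54 in adult MII pools against 10.05, 6.93 and 1.94 in adult GV pools, so that adult GV replicate 3 stood far below the rest. Over 9 arrays the tailing list had 7 of 13 genes higher at MII in prepubertal (median 0.11) and 5 of 13 in adult oocytes (-0.71), and the decay list 4 of 13 (-0.24) and 2 of 13 (-0.41). The m6A list had 6 of 10 (0.28) and 5 of 10 (0.04), and the small-RNA partners 1 of 4 (-0.85) and 2 of 4 (0.76). Over 12 arrays the storage list had 11 of 15 genes higher (0.64) in prepubertal and 8 of 15 (0.34) in adult MII oocytes.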

How the data were processed

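The values were log2 signals of Affymetrix bovine probe sets as deposited. MAS5 is named for them per the submitters' processing notes, without a version. The 2% trimmed mean of linear signal was 500 on each of them, so the arrays were not scaled again in the main fit. Of 24128 probe sets 112 controls were left out, and 14409 with a mean over 12 arrays above the 40th percentile (5.57) were tested. Names came from the platform annotation: 13292 probe sets had 1 symbol, 86 several and 10638 none. The 59 members and all gene lists were chosen with earlier results of these data known.

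The model had 1 mean per group and was fitted by lmFit and eBayes with an intensity trend (limma 3.58.1, R 4.3.3), with 8 residual degrees of freedom over 12 arrays and 5 over 9, and p-values were adjusted by Benjamini-Hochberg over 14409 probe sets. Only 2 or 3 arrays a group limit the precision: tested on simulated data for the adult maturation comparison, the 9-array fit recovered 16% of log2 changes of 4, 34% of 6 and 72% of 8. In each comparison the text names the 4 members a direction with the smallest unadjusted p in either fit, PAPOLA, PATL1, DICER1, members apart at both ages and those outside the 9-array range; others are given with values only. Arrays of the same replicate number correlated above 0.1 in every pair in the prepubertal maturation comparison (0.149 to 0.609 over probe sets). Between the ages at GV 2 of 3 pairs did (0.383 and 0.381, against -0.021). In the prepubertal maturation comparison the pair at 0.609 is the 2 replicate 1 arrays, which lack an oocyte profile. Prepubertal MII replicate 2 correlated more with prepubertal GV replicate 3 (0.307) than with prepubertal GV replicate 2 (0.149). Neither the labels nor these values show that equal numbers share a source. Alternatives were other scalings, filters, a pseudocount of 32, variance models, a replicate block, means of probe sets and leaving out each array.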

Additional observations from a re-analysis of the deposited data

How the results depend on the processing

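The count of members with an adjusted p under 0.05 was 0 in all 5 comparisons, over 12 and 9 arrays, under every alternative run except in adult MII against GV over 9 arrays: 1 (PAPOLA, adjusted p = 0.0450 in limma) with no filter on dim probe sets, where 28 of 24016 probe sets were called higher and 26 lower, and 0 to 2 when 1 array was left out (2, PAPOLA and DCP1A, without adult GV replicate 2, beside 29 higher and 1 lower of 14409 probe sets, where replicate 3 alone stands for its group and is assumed to vary like the others). With the replicate number as a replicate block the count was 0 in every comparison. In the prepubertal maturation comparison 2 members were then higher and 1 lower at an unadjusted p under 0.05 in limma, against 0 and 0 in the main fit. Beside them were 635 and 820 of 14409 probe sets, and that the numbers pair the arrays was not established. Among 659 recomputed differences of named members 7 changed sign. Changes of the filter or the variance model, the replicate block and fits of only the compared groups cannot alter a difference. The settings that can gave 1 reversal of 95 after quantile normalization and 1 of 95 after median centring. They gave 1 of 47 with the pseudocount, 2 of 47 with means of probe sets and 2 of 48 over 8 arrays. PATL1 between the ages at MII read -0.093 after quantile normalization and -0.12 with the mean of its probe sets over 12 arrays, and -0.045 over 8 arrays, also without adult MII replicate 3. EXOSC9 between the ages at MII read 0.088 over those 8 arrays. In prepubertal maturation over 12 arrays DICER1 read -0.090 with a pseudocount of 32, LSM5 0.031 after median centring and PABPC1 -0.23 with the mean of its probe sets.

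When 1 array was left out, 9 of 95 differences changed sign, and the ranges were as follows. Between the ages at GV over 12 arrays, CPSF1 ran from -3.11 to 0.30 and DCPS from -3.88 to 0.085. At MII, PATL1 ran from -0.89 to 0.87 over 12 arrays and from -0.05 to 1.55 over 9, and EXOSC9 from -0.81 to 0.09 over 9. For adult maturation over 12 arrays, CPSF1 ran from -0.16 to 3.25 and LSM5 from -1.91 to 1.86. For prepubertal maturation, DICER1 ran from -1.32 to 1.38 over 12 arrays and from -2.18 to 3.23 over 9. The cause was not tested. Few arrays limit all counts: over 9 arrays a simulated log2 change of 4 was recovered in 16% of cases.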
